A study of Homo sapiens with 8 samples.

Results

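The loci described here are the rows of the deposited gene table that carry a hyphen in place of a gene name. They were chosen by 2 criteria, a gene field holding only a hyphen and a measured value above 0 in both groups, which 2135 of the 29004 rows met. Such rows are loci that a transcript assembler built from aligned reads and could not tie to a gene of its reference annotation. The 6 unnamed rows left out were at 0 in both groups in 3 cases and in 1 group in the other 3. Of these 6, chr15:26139029-26139416 was listed at 0.363 FPKM in untreated cells and at 0 in LATS2 OE, and chr3:162509197-162510833 was listed at 0 in untreated cells and at 0.394 FPKM in LATS2 OE. The members with the lowest values inside the threshold were a row at chr5:443334-524549, with 0.0465 and 0.0159 FPKM in untreated and LATS2 OE cells, and a row at chr14:19874338-19874955, with 0.166 and 0.0241 FPKM.

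The RNA came from AB8/13, an immortalized line of human podocytes (the epithelial cells that wrap the capillaries of the kidney filter) carrying wild-type LATS2 in a lentiviral pINDUCER vector, which switches on with doxycycline. LATS2 OE denotes 4 samples given 125 ng/mL doxycycline for 8 h, and untreated denotes 4 samples of the same inducible line without it, so that effects of the drug and of LATS2 cannot be told apart. Polyadenylated RNA was sequenced from cells grown at the permissive temperature, and the table gives 1 value per group, in FPKM (fragments scaled to transcript length and to the size of the library), pooled by the authors. No value below therefore has an SD or a p-value, every difference lacks a replicate check, and whether the 4 samples of a group were separate cultures was not stated. For cells of at least 1 FPKM the decimal point of the deposited number had been lost, which leaves such a level open by powers of 10, whereas values below 1 were intact.

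The label check on LATS2 itself was limited by that loss. The digits of its 2 cells allowed 9 pairs of levels with LATS2 OE to untreated ratios of 0.0201, 0.201, 2.01, 20.1 or 201, so the table's levels alone settled neither the size nor the direction. Of the podocyte markers reported here, ACTN4, PLA2R1, SYNPO, CD2AP and PODXL were at 1 FPKM or more in both groups, and WT1, TRPC6, PTPRO and NPHS1 (nephrin, the main protein of the slit diaphragm) were below 1, with a highest value of 0.413. The 4 endothelial, 3 leukocyte and 3 proximal tubule markers were all below 1 FPKM.

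Transcription outside annotated genes is widespread in mammalian cells. Many promoters fire in both directions and give short transcripts upstream of the gene, RNA polymerase can run on past the end of a gene, active enhancers are transcribed, and long noncoding RNAs (lncRNAs) are still incompletely catalogued. LATS2 is a kinase of the Hippo pathway. It phosphorylates the coactivators YAP and TAZ, which otherwise enter the nucleus and act with TEAD transcription factors on genes such as CTGF, CYR61 and AMOTL2.

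To show what such loci look like, genomic sequence is printed for 8 that differed by at least 2-fold between the groups, lay alone at their position, were no longer than 1000 bp and did not overlap a protein-coding exon. All are from the plus strand of GRCh37 (hg19), whole for loci of up to 300 bases and as the central 200 bases of longer ones. Capitals mark the letters TGANTCA, an AP-1 site, and CATTCC, a TEAD site, searched on both strands. Ratios of LATS2 OE to untreated were ranked after adding 0.1 FPKM to both values. Among such loci named here, the first 4 have the lowest of these ratios, the next 3 the highest, and the last lies beside AMOTL2. The PBX3 and STAMBPL1 loci are ranked at the lowest level their digits allow.
chr11:88144305-88144594, upstream of CTSC: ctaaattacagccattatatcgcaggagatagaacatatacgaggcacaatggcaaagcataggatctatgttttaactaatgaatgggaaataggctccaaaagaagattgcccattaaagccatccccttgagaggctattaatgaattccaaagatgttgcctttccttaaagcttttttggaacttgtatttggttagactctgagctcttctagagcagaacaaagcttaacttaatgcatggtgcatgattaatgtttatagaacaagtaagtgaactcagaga
chr9:128508616-128508850, upstream of PBX3: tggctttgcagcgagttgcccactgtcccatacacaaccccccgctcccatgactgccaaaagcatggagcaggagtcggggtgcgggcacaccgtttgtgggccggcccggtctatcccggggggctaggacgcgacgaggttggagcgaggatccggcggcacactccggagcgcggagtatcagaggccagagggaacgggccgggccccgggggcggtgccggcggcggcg
chr10:90686905-90687186, in a STAMBPL1 intron: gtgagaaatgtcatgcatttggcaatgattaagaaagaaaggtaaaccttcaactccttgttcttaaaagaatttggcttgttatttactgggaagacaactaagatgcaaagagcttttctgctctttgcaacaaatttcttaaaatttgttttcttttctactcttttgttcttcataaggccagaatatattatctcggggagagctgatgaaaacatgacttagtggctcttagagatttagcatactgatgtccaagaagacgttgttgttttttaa
chr1:98745824-98746023, beside LOC729987: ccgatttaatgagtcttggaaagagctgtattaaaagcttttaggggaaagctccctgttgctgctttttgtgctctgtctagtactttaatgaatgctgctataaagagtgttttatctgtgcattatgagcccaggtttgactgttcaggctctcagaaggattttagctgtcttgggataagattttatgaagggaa
chr3:141448742-141448941, upstream of RNF7: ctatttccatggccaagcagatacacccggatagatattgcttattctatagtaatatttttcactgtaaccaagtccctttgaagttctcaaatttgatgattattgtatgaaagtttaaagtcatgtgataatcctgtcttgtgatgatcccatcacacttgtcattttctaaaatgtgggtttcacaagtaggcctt
chr6:136656989-136657188, downstream of MAP7: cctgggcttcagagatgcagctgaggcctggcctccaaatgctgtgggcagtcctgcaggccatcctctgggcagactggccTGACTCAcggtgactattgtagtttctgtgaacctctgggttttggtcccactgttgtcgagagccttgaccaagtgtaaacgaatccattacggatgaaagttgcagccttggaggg
chr1:161394216-161394415, near SDHC: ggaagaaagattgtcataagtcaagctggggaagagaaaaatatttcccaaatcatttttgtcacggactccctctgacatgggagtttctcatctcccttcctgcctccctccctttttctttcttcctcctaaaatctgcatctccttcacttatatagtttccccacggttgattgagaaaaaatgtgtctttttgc
chr3:134068306-134068505, beside AMOTL2: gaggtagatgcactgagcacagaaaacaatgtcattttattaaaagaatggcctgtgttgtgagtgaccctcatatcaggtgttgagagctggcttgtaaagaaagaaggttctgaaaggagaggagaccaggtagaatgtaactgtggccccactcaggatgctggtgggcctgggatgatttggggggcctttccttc
The sequences ranged widely in base composition, from 34.0% GC in the STAMBPL1 intron to 70.6% beside the PBX3 start. Among these 8 stretches the AP-1 letters occurred once, near MAP7, and the TEAD letters did not occur, which says only that these letters are not in these windows. In the central 300 bases of the 1513 strandless loci that stood alone on the main chromosomes, CATTCC was found in 17.1% and TGANTCA in 9.12%, beside 14.7% and 8.51% of the 22083 distinct loci of the table. AATAAA, the usual signal for cleavage and polyadenylation, was found in 30.0% of them and in 32.6% of all loci.

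The unnamed loci were short and lowly expressed. Their median length was 1023 bp, against 38420 bp for the 18501 named rows with values above 0 in both groups. In both groups 1753 of the 2135 members (82.1%) were below 1 FPKM, 81 crossed 1 FPKM between the groups and 301 (14.1%) were at 1 FPKM or more in both. Of the named rows 34.2% were below 1 FPKM in both groups. Within the 1753, the untreated value had a median of 0.346 FPKM, with quartiles at 0.253 and 0.489, and the LATS2 OE value a median of 0.345 FPKM, with quartiles at 0.253 and 0.475. The level of the 2 groups was thus nearly the same in the middle of the distribution. The rule kept 99.7% of unnamed rows but 68.9% of named rows, since nearly every unnamed row had a value above 0.

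The order of the rows gave a hint to strand. Within each chromosome the rows formed up to 3 runs of rising position. Of the named rows with 1 annotated strand, 98.7% in the first run were on the plus strand and 98.8% in the second on the minus strand. The third run held 12 named rows and 1739 unnamed ones, 1737 of them members (81.4% of the 2135), and is called strandless here. The library kit does not mark strand, so an assembler learns the strand only from splice sites or from a gene. The other 398 members were in the first 2 runs. Members that stood alone at their position had a median length of 720 bp without a strand (n = 1514, quartiles 505 and 1138 bp) and of 5015 bp in the strand runs (n = 306, quartiles 2106 and 13010 bp). Those with a strand also reached higher levels, with 63.7% below 1 FPKM in both groups against 86.2% of the strandless.

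Not every member had a position of its own. Besides the 1820 that stood alone (85.2%), 224 shared their locus string with a named row and 91 with other unnamed rows only, so that length and position of these 315 describe the whole bundle. The longest were a strandless row within the NRG1 bundle of 1134292 bp and a row of the EPHA6 bundle of 935871 bp, followed by 3 rows of the RIMS1 bundle of 799201 bp. NRG1 encodes neuregulin, a growth factor, EPHA6 an ephrin receptor and RIMS1 a protein of synaptic vesicle release. The EPHA6 row was at 0.534 FPKM in untreated cells and 0.301 FPKM in LATS2 OE, 1.77-fold lower. At the other end, the 5 shortest members were 82 to 85 bp long.

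The shortest loci had the highest levels. Of the 118 members that stood alone with up to 300 bp, 103 (87.3%) were at 1 FPKM or more in both groups, as were all 33 of up to 100 bp, against 8.93% of those above 300 bp. FPKM divides by length, and at loci little longer than a read few fragment positions are possible. The member with the highest settled level, the 90 bp locus chr17:19349236-19349325, was at 1724 FPKM in untreated cells and 1613 FPKM in LATS2 OE, a log2 ratio of −0.10. It overlaps RPS2P46, a processed pseudogene of a ribosomal protein, whose reads cannot be told apart from those of near-identical copies. In all, 28 of the members that stood alone overlapped a ribosomal protein pseudogene, 15 of them at most 300 bp long and 20 at 1 FPKM or more in both groups.

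No other member had a settled level of 1 FPKM or more in both groups. The next 9 settled levels lay just under 1 FPKM, a choice that forces both values close to 1, so nothing is read from their ratios. A locus just upstream of SUV39H2 (a histone methyltransferase), covered by the lncRNA SUV39H2-DT, was at 0.956 FPKM in untreated cells and 0.970 in LATS2 OE. One 0.163 kb upstream of the row of VPS26A, a retromer subunit, was at 0.967 and 0.957 FPKM. By GENCODE this locus covers the VPS26A start, with 74.0% of its bases exonic. One 0.066 kb upstream of MBTPS1, a protease that activates sterol-responsive factors, was at 0.950 and 0.924 FPKM.

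By position, members crowded at the edges of named genes. Their median distance to the nearest named row was 2078 bp. Apart from the 224 that overlapped one, 686 (32.1%) lay within 1 kb, 493 (23.1%) from 1 to 5 kb, 192 from 5 to 10 kb, 319 from 10 to 50 kb, 111 from 50 to 100 kb and 106 (4.96%) farther. Where the side could be read from the run of the neighbour's row, taken as its strand, it changed with distance. Within 1 kb, 453 members were upstream and 69 downstream, whereas from 1 to 5 kb 156 were upstream and 233 downstream, and from 5 to 10 kb 39 and 103.

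Measured against GENCODE protein-coding starts, the upstream peak was narrow. Of the 1514 strandless members that stood alone, 339 (22.4%) ended within 1 kb upstream of a start, 72 covered one and 40 began within 1 kb inside the gene. Those upstream had a median GC content of 52.0% and a median of 10 CpG in the central 300 bases, and those over a start 58.3% and 13, against 42.7% and 3 for the 786 members over 10 kb from any start. CpG-rich sequence is typical of mammalian promoters. Untreated levels had a median of 0.454 FPKM upstream and 0.604 FPKM over a start, against 0.328 FPKM beyond 10 kb.

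**Figure D1:**
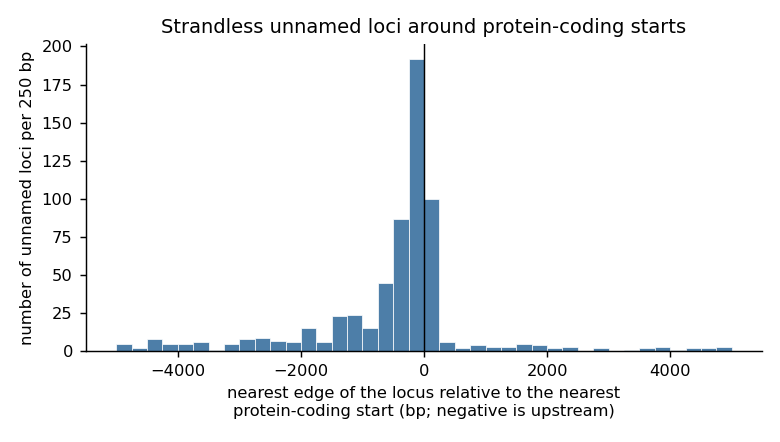
Number of strandless unnamed loci (y axis, per 250 bp) by the distance in bp from their nearest edge to the nearest GENCODE protein-coding start (x axis, negative upstream, loci covering a start at 0). Of the 1514 loci, 339 end within 1 kb upstream and 40 begin within 1 kb inside.

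Later annotation placed a name on many of these loci. Of the 1820 members that stood alone, 999 (54.9%) touched an exon of GENCODE release 44 on GRCh37, with 583 covered over at least 50% of their bases. Of the 999, 347 touched a protein-coding exon, 520 a lncRNA exon but no protein-coding one, and 132 another type only. A further 280 (15.4%) lay wholly in introns and 529 (29.1%) were intergenic. Of the 520 at lncRNA exons 298 touched only lncRNAs without a symbol. The naming of many lncRNAs by position is visible too, as 91 members overlapped a gene named as a divergent transcript (DT) and 63 one named as antisense (AS). Differences in level between these classes were small, with untreated medians of 0.466 FPKM at lncRNA exons, 0.487 at protein-coding exons, 0.351 in intergenic sequence and 0.310 in protein-coding introns.

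Members were unevenly spread over chromosomes. They made up 3.90 of every 100 rows on chromosome 19 and 4.82 on the X chromosome, but 9.98 on chromosome 5 and 11.1 on chromosome 21. The 5 members farthest from any named row lay in gene-poor stretches, 691 to 1030 kb away. Near CDH8, a cadherin, a 465 bp locus at 1023 kb was at 0.383 FPKM in untreated cells and 0.156 FPKM in LATS2 OE, 2.46-fold lower, while the 551498 bp locus beside it was at 0.380 and 0.386 FPKM. A locus 933 kb from its nearest named row on chromosome 4 was at 0.408 and 0.181 FPKM, 2.26-fold lower.

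The comparison the design implies is LATS2 OE against untreated. It was made on log2(FPKM + 0.1) over rows with a mean of at least 0.1 FPKM, which 2123 of the 2135 members met. The pseudocount understates the difference of low loci, and folds below are plain ratios of the 2 FPKM values. Among these members 36 (1.70%) were at least 2-fold higher in LATS2 OE and 66 (3.11%) at least 2-fold lower. Over all 16979 rows that met the same minimum, members included, the background was 0.589% higher and 0.795% lower. Over the 14856 named rows alone it was 0.431% and 0.464%. The median log2 ratio was −0.02, with quartiles at −0.29 and 0.25, and 51.9% of members lay below 0. The SD of the log2 ratio over members was 0.48, and over 14856 named rows it was 0.25 around a median of 0.00. Open digits were placed where the groups are closest, which misplaces a true change over 3.16-fold. Values of at least 1 FPKM were more common among named rows, so the 2 sets were not measured alike here.

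Restricting the comparison to rows below 1 FPKM in both groups, where the digits are intact, gave 30 of 1741 members (1.72%) higher and 49 (2.81%) lower. The background of all 4423 such rows, members included, was 1.04% and 1.24%. The 2682 named rows in that range held 16 (0.597%) higher and 6 (0.224%) lower, around a median of 0.06. In this range the share past 2-fold was larger among unnamed than among named rows in both directions. The 2 sets also differed in length, with medians of 1016 and 34030 bp, and the part of length in the result was not tested.

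**Figure D2:**
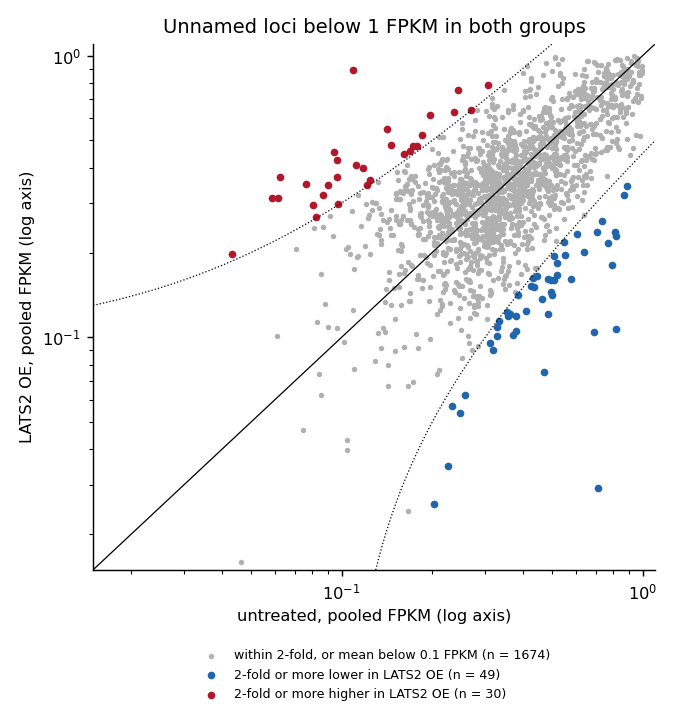
Pooled FPKM in untreated (x axis) and LATS2 OE cells (y axis), both log axes, for the 1753 unnamed loci below 1 FPKM in both groups. The solid line is equality and the dotted lines are 2-fold after adding 0.1 FPKM, with 49 loci below and 30 above among those with a mean of at least 0.1 FPKM.

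The spread of the ratios differed by length. Among members that stood alone, the SD of the log2 ratio was 0.62 up to 300 bp (n = 118), 0.64 from 301 to 500 bp (n = 254), 0.47 from 501 to 1000 bp (n = 676), 0.34 from 1001 to 2000 bp (n = 393), 0.38 from 2001 to 5000 bp (n = 206) and 0.46 above 5000 bp (n = 164). The share past 2-fold in either direction, in the same order of length, was 9.32%, 12.6%, 4.14%, 1.27%, 1.94% and 4.88%. Over all rows that met the same minimum, 0.589% were higher and 0.795% lower. If the whole locus is taken as transcribed, FPKM times length in kb gives fragments per 1000000 fragments of the library (FPM), whose median was 0.201 from 301 to 500 bp and 0.496 from 1001 to 2000 bp. Over the 1305 strandless members that stood alone below 1 FPKM in both groups the median was 0.259 FPM, with quartiles at 0.170 and 0.447. The depth of each sample is unknown. The medians of the 6 length classes stayed between −0.09 and 0.00.

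**Figure D3:**
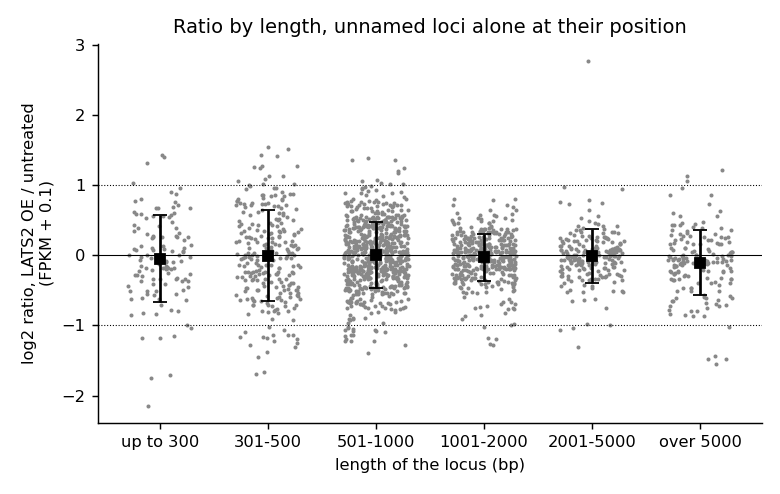
Log2 ratio of LATS2 OE to untreated (y axis, FPKM + 0.1) for unnamed loci alone at their position, by length in bp (x axis). Grey points are loci, squares the mean and bars 1 SD over loci, not over samples, and the SD narrows from 0.64 at 301 to 500 bp to 0.34 at 1001 to 2000 bp.

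No class of annotation stood out in its median ratio apart from a very small one. Medians were −0.04 at lncRNA exons, 0.05 at protein-coding exons, −0.04 in intergenic sequence, −0.08 in lncRNA introns and 0.04 in protein-coding introns, all small beside the spread over loci of 0.44 to 0.56. In introns of other genes it was −0.42 over 9 loci. At least 2-fold lower, beside 0.795% of all rows, were 24 of 528 intergenic members, 10 of 517 at lncRNA exons, 8 of 115 in lncRNA introns, 7 of 346 at protein-coding exons, 2 of 154 in protein-coding introns and 3 of the 9 in introns of other genes. At least 2-fold higher, beside 0.589% of all rows, were 10, 6, 3, 11, 2 and 0 of them. Strandless loci that ended within 1 kb upstream of a protein-coding start had a median of −0.04 and 3.83% past 2-fold, beside 5.78% for those over 10 kb from a start.

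Among the 24 members with the most extreme ratios, 12 in each direction, 20 were strandless and 19 stood alone. Where 1 of the 2 values was 1 FPKM or more, the ratio used is the one at the lowest level the digits allow, and the next level would make it another 10-fold larger, so the order among these loci is not settled. The locus with the highest ratio on this scale was chr12:27297935-27301525, 9.92 kb from C12orf71 and touching exons of lncRNAs without a symbol. It was at 0.101 FPKM in untreated cells and 1.27 FPKM in LATS2 OE, 12.5-fold higher at the lowest level the digits allow. The row had a strand, and at 3591 bp it was longer than most.

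The next highest ratios belonged to rows that shared a locus with another row. A strandless row in the KMT2E-AS1 and LINC01004 bundle, which lies at the start of the chromatin regulator KMT2E, was at 0.148 FPKM in untreated cells and 1.37 FPKM in LATS2 OE, 9.24-fold higher at the lowest level the digits allow. Downstream of LARP1B, an RNA-binding protein, a strandless row at chr4:129141322-129144036 was at 0.109 and 0.887 FPKM, 8.11-fold higher, and the row with a strand at the same locus was at 0.908 FPKM in untreated cells and at 1.14 FPKM or a higher power of 10 in LATS2 OE. The lowest ratio on this scale also belonged to a row that shared its locus. At chr4:118246628-118253414, within an intron of LINC02262, the strandless row was at 0.712 FPKM in untreated cells and 0.0293 FPKM in LATS2 OE, 24.3-fold lower, beside a row with a strand at 1.01 FPKM or a higher power of 10 in untreated cells and 0.800 FPKM in LATS2 OE. The ratios of these neighbouring rows are thus open. How the assembler divided reads between 2 rows of one locus was not tested, so these ratios describe rows rather than the locus.

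Other loci with high ratios stood alone. The 452 bp locus 7.98 kb upstream of RNF7, a subunit of ubiquitin ligases, was at 0.0627 FPKM in untreated cells and 0.372 FPKM in LATS2 OE, 5.93-fold higher. The 415 bp locus 6.05 kb downstream of MAP7, a microtubule-associated protein, was at 0.0945 and 0.457 FPKM, 4.83-fold higher. The sequences printed above for both are from their centres. In an intron of a lncRNA 56.4 kb from SDHC and CFAP126, a 456 bp locus was at 0.141 and 0.550 FPKM, 3.89-fold higher.

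A further set lay in exons that later annotation gives to a named gene. Downstream of VTA1, a protein of endosomal sorting, a 241 bp locus wholly within a GENCODE exon of VTA1 was at 0.688 FPKM in untreated cells and 2.02 FPKM in LATS2 OE, 2.94-fold higher, while VTA1's own row had a log2 ratio of −0.07. Downstream of MAP2K6, a kinase that activates p38, a 543 bp locus in a MAP2K6 exon was at 0.0614 and 0.312 FPKM, 5.09-fold higher, and the MAP2K6 row was also higher, by 0.88 on the log2 scale. A 535 bp locus covered by RGS17 exon sequence, 3.60 kb from MTRF1L, was at 0.0764 and 0.351 FPKM, 4.59-fold higher. A 662 bp locus touching exons of SRD5A3-AS1 and LINC02928, but none of SRD5A3, was at 0.0588 and 0.313 FPKM, 5.32-fold higher. It lay 0.072 kb from the bundle of SRD5A3, an enzyme of dolichol synthesis, and SRD5A3-AS1. A 250 bp locus at an AMZ2 exon was at 0.951 and 2.68 FPKM, 2.82-fold higher. Outside this set, the remaining locus of the 12 highest lay in an intron of a lncRNA without a symbol. At 440 bp and 624 kb from LOC101927686, it was at 0.0968 and 0.425 FPKM, 4.39-fold higher.

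At the low end, a 290 bp locus 73.4 kb upstream of CTSC, the lysosomal protease cathepsin C, was at 0.814 FPKM in untreated cells and 0.107 FPKM in LATS2 OE, 7.58-fold lower. The CTSC row itself had a log2 ratio of −0.12. A locus touching PBX3-DT, 0.088 kb upstream of the row of PBX3 (a homeodomain transcription factor), was at 3.32 and 0.915 FPKM, 3.63-fold lower at the lowest level the digits allow, with PBX3 itself at a log2 ratio of −0.04. A 282 bp locus in a STAMBPL1 intron was at 1.35 and 0.347 FPKM, 3.89-fold lower. A 378 bp locus 0.139 kb upstream of SLC1A5, the glutamine transporter, was at 0.789 and 0.181 FPKM, 4.37-fold lower, with SLC1A5 at 0.01. On chromosome 10 a 342 bp locus 20.1 kb upstream of PPP2R2D, a regulatory subunit of a phosphatase, was at 0.765 and 0.215 FPKM, 3.55-fold lower.

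The FOXD1 bundle held 3 unnamed rows, all lower. FOXD1 is a forkhead transcription factor of the kidney stroma. The strandless rows within its 42116 bp bundle were at 0.689, 0.203 and 0.303 FPKM in untreated cells and at 0.105, 0.0257 and 0.186 FPKM in LATS2 OE, with log2 ratios of −1.95, −1.27 and −0.50, and the FOXD1 row had −0.53. In the RIMS1 bundle the 3 unnamed rows had −1.51, −0.50 and −0.37, and the RIMS1 row −0.09. The strandless RIMS1 row with −1.51 was at 2.23 and 0.718 FPKM, 3.10-fold lower. A row with a strand in an intron of LINC03003 on chromosome 6 was at 1.79 and 0.574 FPKM, 3.11-fold lower, and another of 8875 bp, 247 kb from LOC101927686, at 0.816 and 0.229 FPKM, 3.56-fold lower. Also among the 12 lowest, a 9255 bp locus touching ANKRD36C had open digits in both groups, and its direction was not settled.

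The direction of members was set beside that of the nearest named row where this was the only named row of its locus and was settled or placed within 2-fold. Neighbours with open digits were placed at the power of 10 that brings both groups closest, so a true change over 3.16-fold would be misplaced. The log2 ratios given for named rows rest on the same placing. Open rows placed beyond 2-fold, such as CYR61, F3 and AMOTL2, are left out, so the shares below describe only neighbours that were settled or placed at a small difference. Of 975 members within 10 kb of such a neighbour, without overlap, 554 (56.8%) had a log2 ratio of the same sign. The share was 59.6% within 1 kb (n = 500), 57.0% from 1 to 5 kb (n = 358), 44.4% from 5 to 10 kb (n = 117), 54.8% from 10 to 50 kb (n = 186) and 65.5% beyond 50 kb (n = 87). Within 1 kb it was 67.2% for the 67 downstream members and 58.4% for the 433 upstream, with Pearson's r across loci of 0.49 and 0.24. Of 133 members in the bundle of such a named row, 62.4% shared its sign. The points share the same libraries and normalization, and neighbouring loci are not independent, so these values are descriptions.

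Genes that YAP and TAZ activate were then looked up among the neighbours. Of 24 targets listed, 5 were the nearest named row of at least 1 member within 50 kb and 1 more, IGFBP3, at a greater distance. All 14 members concerned were lower in LATS2 OE than in untreated cells, with a median log2 ratio of −0.76 against −0.02 over all 2123 members, of which 51.9% were lower. For the 7 within 50 kb the median was −0.55. Only 2 of the 14 passed 2-fold on the scale with the pseudocount, and the 14 come from 6 neighbourhoods. The list was chosen with the behaviour of these genes in these samples known, and is thus not independent evidence of direction.

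The 2 loci beside AMOTL2, an angiomotin that binds YAP, lay beyond the end of the gene opposite its start, both touching a lncRNA without a symbol. The nearer one, 1.47 kb away, was at 0.311 FPKM in untreated cells and 0.0955 FPKM in LATS2 OE, 3.26-fold lower. The other, 2.78 kb away, was at 0.285 and 0.0935 FPKM, 3.05-fold lower. Both pairs of values are below 1 FPKM and thus settled, which the AMOTL2 row itself is not.

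Downstream of CYR61, a secreted matricellular protein, 2 loci with a strand were also lower. The one 15.2 kb away was at 0.510 FPKM in untreated cells and 0.321 FPKM in LATS2 OE, 1.59-fold lower, and the farther one at 0.344 and 0.155 FPKM, 2.22-fold lower. Just upstream of F3, which encodes tissue factor, a 550 bp locus was at 0.333 and 0.277 FPKM, 1.20-fold lower. Upstream of ARHGEF17, a guanine nucleotide exchange factor, a locus touching ARHGEF17-AS1 was at 1.01 and 0.683 FPKM, 1.49-fold lower at the lowest level the digits allow, beside −0.36 for the ARHGEF17 row on the log2 scale. In a CCDC80 intron, 4.95 kb upstream of the CCDC80 row, a locus was at 0.180 and 0.0917 FPKM, 1.96-fold lower, beside −0.46 for CCDC80, a matrix protein.

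The other 7 lay in the gene-poor sequence upstream of IGFBP3, which encodes a binding protein of insulin-like growth factors. They were 70.0 to 432 kb away, between 46030890 and 46393304 on chromosome 7. Nearest to the gene was a locus at 0.304 FPKM in untreated cells and 0.116 FPKM in LATS2 OE, 2.61-fold lower. The locus 226 kb away was at 0.640 and 0.200 FPKM, 3.20-fold lower, and the one at 238 kb at 0.827 and 0.475 FPKM, 1.74-fold lower. The 3 farthest, at 424, 430 and 432 kb, were 2.04-fold, 2.52-fold and 1.53-fold lower. In all 7 the LATS2 OE value was the lower one, although the nearest named row is only a marker of position here.

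**Figure D4:**
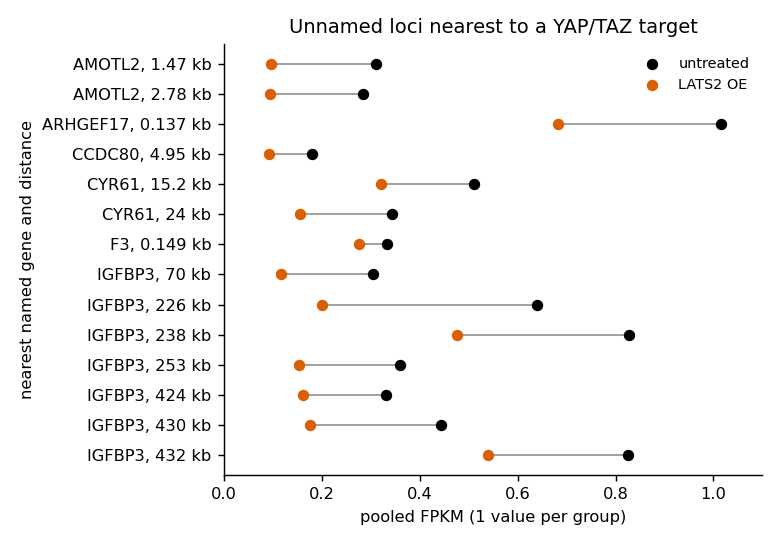
Pooled FPKM (x axis, 1 value per group) in untreated (black) and LATS2 OE cells (orange) for the 14 unnamed loci whose nearest named row is a YAP/TAZ target, labelled by that gene and the distance in kb. The orange point lies left of the black one in all 14, and the ARHGEF17 locus is drawn at the lowest level its digits allow.

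The other lists of neighbours were too small to describe as groups. Of 25 genes that answer to TNF or NF-kB, NFKBIA and LIF had 3 members between them, with log2 ratios of 0.08 to 0.47. The locus 0.085 kb upstream of NFKBIA, the inhibitor of NF-kB, was at 0.347 FPKM in untreated cells and 0.372 in LATS2 OE. Of 18 apoptosis genes 3 had 4 members. Upstream of PMAIP1, which encodes the proapoptotic protein NOXA, a 504 bp locus at 0.593 kb was at 0.0825 and 0.268 FPKM, 3.25-fold higher. A 941 bp locus 0.037 kb from the bundle that holds ADAMTSL4, MIR4257 and MCL1 overlapped ADAMTSL4-AS2 and was at 0.487 and 0.301 FPKM, 1.62-fold lower. Downstream of BCL2L11, which encodes BIM, a locus in MIR4435-2HG was at 0.728 and 0.929 FPKM, 1.28-fold higher. Of 19 immediate early genes only KLF4 was the nearest named row of a member, at 555 kb, with a log2 ratio of −0.35.

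In some places members that shared a nearest named row differed between the groups in one direction. In 19 places at least 5 members above the floor lay nearest to one named row without overlapping it, 110 members in all. In 6 of the 19 every member was lower in LATS2 OE, and in 1 every member was higher. Besides IGFBP3 the 6 were LOC729987, LOC101928569, MRPL14, LOC100128554 and LINC00316, with median log2 ratios of −0.53, −0.51, −0.40, −0.39 and −0.20. These places were picked out after the values were seen, and neighbouring assembled pieces can belong to one transcript.

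Beside LOC101928569 the 6 members had ratios close to each other, from −0.59 to −0.34. The 468 bp locus there was at 0.494 FPKM in untreated cells and 0.295 FPKM in LATS2 OE, and the 590 bp one at 0.336 and 0.205 FPKM. Beside LOC729987 the 5 members ran from −1.69 to −0.10, and the lowest, 1.76 kb away and printed above, was at 0.469 and 0.0757 FPKM, 6.19-fold lower. Beside MRPL14, a mitochondrial ribosomal protein, 5 short intergenic loci 8.59 to 16.3 kb away ran from −1.06 to −0.07. In the LOC100128554 stretch of chromosome 12, 7 of the 8 rows shared one bundle of 169987 bp, and the 8 ran from −0.75 to −0.19.

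In the other direction, the 5 rows on an unplaced contig with FAM230C ran from 0.28 to 0.83. Beside TMEM92, 7 of 8 intergenic loci were higher, led by a 650 bp locus at 0.176 FPKM in untreated cells and 0.375 FPKM in LATS2 OE. Near SLITRK5, a neuronal membrane protein, 6 loci that touch exons GENCODE gives to that gene had a median of 0.32 but ran from −0.24 to 1.31. The locus of 272 bp was at 0.244 and 0.753 FPKM and the locus of 853 bp at 0.250 and 0.197 FPKM. Loci touching exons of one gene thus spread over more than 1 log2 unit. Near TSHZ3, a zinc finger factor of the developing ureter, 4 of 5 were higher, with a median of 0.43.

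**Figure D5:**
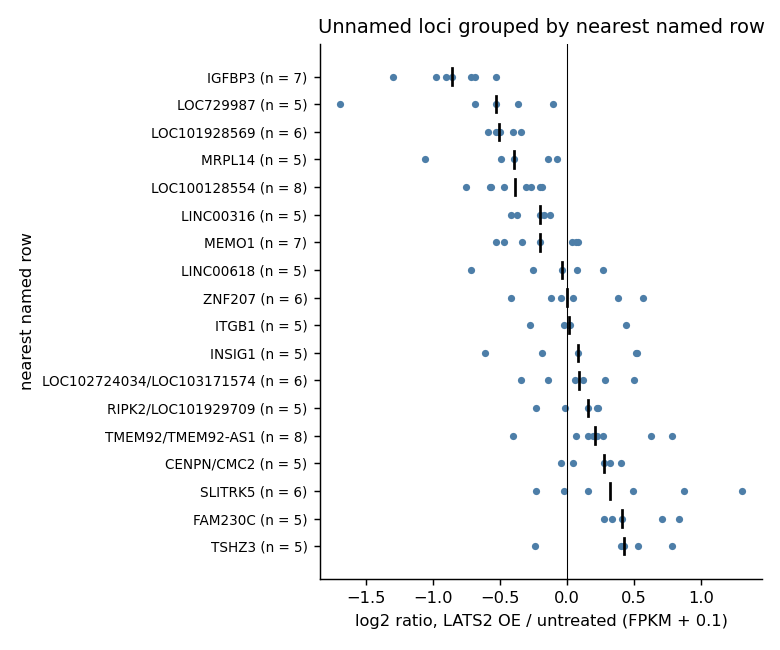
Log2 ratio of LATS2 OE to untreated (x axis, FPKM + 0.1) of unnamed loci in 18 places where at least 5 lie nearest to one named row (y axis, with the number of loci). Points are loci, or rows where several share a bundle, and black bars the median of each place, from −0.86 beside IGFBP3 to 0.43 beside TSHZ3.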

How the data were processed

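Polyadenylated RNA of 8 samples, 4 per group, was sequenced as single reads. Per the labels and the study's methods the authors demultiplexed with bcl2fastq, checked quality with FastQC, trimmed with Trimmomatic 0.33, aligned to hg19 with TopHat and assembled and quantified with the Cufflinks package. For TopHat, Cufflinks and the reference annotation, a version is not given in any source used here. The authors deposited 1 gene table with a pooled FPKM value per group, so no depth, SD or interval per sample can be given. Its further columns hold the authors' own comparison (log2 fold change, test statistic, p and q) and were not used. The table holds no other value columns.

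Cells of at least 1 had lost their decimal point. Where several powers of 10 were possible the pair was placed where the groups were closest, which misplaces a true change over 3.16-fold; pairs with 1 value below 1 were thereby placed at the lowest level. Levels of at least 1 are printed only where settled or beside a value below 1. Both cells were intact for 1755 members. Starts were counted from 0 in the table and are given from 1. Loci were compared with GENCODE release 44 lifted to GRCh37 with Python 3.11.15, pandas 2.3.3 and samtools 1.23.1. Locus strings can hold several rows, and exon lengths within a locus are unknown.

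Ratios are log2((LATS2 OE + 0.1) / (untreated + 0.1)) for rows with a mean of at least 0.1 FPKM, called at 2-fold, with no test because each group has 1 value. Samples were grouped by the treatment in their labels. Named loci are the 12 highest and 12 lowest ratios, the 10 highest settled levels, the 5 longest, 5 shortest and 5 farthest members, and those within 50 kb of a YAP/TAZ target. Places with at least 5 members, members of other gene lists and those beyond 50 kb were added after their values were seen. A few listed items are not reported here. Members and lists were chosen with earlier results of these data known. Alternatives changed the pseudocount, the minimum, the fold, the placing of digits and the distance to neighbours.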

Additional observations from a re-analysis of the deposited data

How the results depend on the processing

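The counts past 2-fold depended on the pseudocount. Without one, 98 members were at least 2-fold higher and 127 at least 2-fold lower, and with 1 FPKM the counts were 2 and 5, because most members lie below 1 FPKM. With a minimum mean of 0.5 FPKM, which left 761 members, 7 were higher and 21 lower, and at 1.5-fold 183 were higher and 220 lower. Lower calls outnumbered higher ones under each of these settings. Over all 16979 rows at the main setting, members included, 135 were lower and 100 higher. The 14856 named rows among them held 69 lower and 64 higher. Of these, the 2682 below 1 FPKM in both groups held 6 lower and 16 higher. Shares over all rows under the other settings are not given. Only intact loci (30 and 49), no minimum (36 and 67), the lowest level the digits allow (46 and 67) and, added after seeing the data, only members alone at their position (33 and 55) kept both counts within 1.5 times. The median log2 ratio stayed between −0.03 and −0.01. Agreement in sign with the nearest named row was 58.5% within 5 kb, 56.5% within 50 kb and 62.2% among the 164 members within 10 kb that passed 1.5-fold. Of 55 named loci only the ANKRD36C locus changed sign, from −1.54 to 1.67 at the lowest level the digits allow. A pseudocount cannot change a sign, so only the placing of open digits could do so. Sizes did depend on the pseudocount. The highest log2 ratio, near C12orf71, was 2.76, and became 3.64 without a pseudocount and 1.04 with 1 FPKM. The lowest, in the LINC02262 intron, was −2.65, and became −4.60 and −0.73. No paired analysis was possible because the table holds 1 pooled value per group, and for the same reason no replicate could be left out. Depth per sample is unknown and limits every value of a short locus.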
